A study of Mus musculus with 12 samples.

Results

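Matrix metalloproteases (MMPs) and their tissue inhibitors (TIMPs) were examined in RNA of sorted mouse lung cancer cells. The set was chosen by symbol, and 10 of the 30743 genes in the deposited count table belong to it: Mmp2, Mmp7, Mmp10, Mmp12, Mmp13, Mmp14, Mmp15, Timp1, Timp2 and Timp3. All 10 have a row, and 8 of them had enough counts to be tested across genotypes. Mmp7 and Mmp10 did not.

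The 12 libraries fall into 4 groups by title, all of mice of a mixed BL6/129 strain and all on the KT background. There were 3 libraries of KT;Lkb1f/f tumours (Lkb1-deleted), whose floxed gene Stk11 encodes the kinase Lkb1. There were 2 libraries of KT;H11LSL-Cas9_sgSik1-3 tumours (sgSik1-3) and 3 of KT;H11LSL-Cas9_sgSik1 tumours (sgSik1). Both carry a Cas9 allele at the H11 locus, silent until Cre removes a stop cassette, with guides against salt-inducible kinases, which Lkb1 phosphorylates and activates. The 5 Cas9 libraries together are called Sik-targeted, following the series' own wording. The 4 KT libraries served as the control. The labels do not spell out what KT stands for. Alternative names of KT replicates 2, 3 and 4 mention a lentiviral Cre, and those of KT replicate 1 do not. Which guides the sgSik1-3 label covers, tumour age, and whether libraries of 1 group came from separate animals are not stated in the labels, so the p-values measure the spread between these libraries. Guide-directed cutting leaves a mixture of alleles, so a Sik-targeted library need not be uniformly mutant.

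MMPs are zinc proteases made as inactive proenzymes. Secreted members cut collagens, elastin and other matrix proteins after their propeptide is removed, and membrane-type members such as Mmp14 and Mmp15 are cleaved by furin-like convertases on the way to the cell surface. TIMPs bind the active site of MMPs. Timp2 has a further role, since a complex of Timp2 with Mmp14 holds the Mmp2 proenzyme at the cell surface for activation by a free Mmp14 molecule. In tumours many of the secreted MMPs are made by macrophages and fibroblasts as well as by the cancer cells.

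Mmp7, Mmp10, Mmp12 and Mmp13 lie on the forward strand of chromosome 9 within 427.1 kb, at 7272514 to 7699585 (GRCm38, RefSeq), where all 10 protein-coding genes are MMPs. The other 6 genes are scattered. Mmp2 (92827290 to 92853421) and Mmp15 (95352296 to 95374293) are on chromosome 8, Mmp14 (54431598 to 54442456) on chromosome 14, Timp1 (20870166 to 20874737) on chromosome X, Timp2 (118301061 to 118355411, reverse strand) on chromosome 11 and Timp3 (86300412 to 86349505) on chromosome 10. Timp1 lies inside Syn1 and Timp3 inside Syn3, Timp2 overlaps Cep295nl, Mmp2 overlaps Gm45472 and Mmp7 overlaps AV064505, and whether the counting used strand is not given in the sources used here, so reads of such overlapping genes may not have been told apart.

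The chromosome 9 genes also share 2 words in their promoter windows. RefSeq promoter windows, 250 bases before to 50 bases from each annotated start (GRCm38.p6), were matched for 9 of the 10 genes in 11 windows. The word TGANTCA, read on both strands, is the core bound by AP-1 (dimers of Fos and Jun proteins). It was present in Mmp7, Mmp10, Mmp12 and Mmp13, and in 8.97% of 27025 genes with a window (7.81% of 32851 windows). The word TATAAA on the gene strand was present in the same 4 genes and in 9.77% of all genes with a window (8.32% of windows). The windows of Mmp14, Mmp15, Timp1, Timp2 and Timp3 held neither. The cyclic AMP response word TGACGTCA (both strands, 1.79% of windows) was in none of the 9. The sequences of the 4 chromosome 9 genes and, for contrast, of Mmp14 are printed over 125 bases, 110 before the start and 15 from it, all on the forward strand, with TGANTCA and TATAAA matches in capitals. They are chr9:7272404-7272528 for Mmp13, chr9:7347264-7347388 for Mmp12 (the second of 2 annotated starts), chr9:7502232-7502356 for Mmp10, chr9:7691980-7692104 for Mmp7 (the first of 2) and chr14:54431488-54431612 for Mmp14.
Mmp13: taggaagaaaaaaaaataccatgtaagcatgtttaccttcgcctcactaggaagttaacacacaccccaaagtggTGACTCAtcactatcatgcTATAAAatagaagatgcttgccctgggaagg
Mmp12: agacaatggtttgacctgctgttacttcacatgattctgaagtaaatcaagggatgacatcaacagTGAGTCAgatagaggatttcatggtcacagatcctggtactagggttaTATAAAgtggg
Mmp10: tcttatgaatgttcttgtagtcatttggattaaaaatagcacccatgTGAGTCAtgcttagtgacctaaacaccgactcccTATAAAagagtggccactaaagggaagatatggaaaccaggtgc
Mmp7: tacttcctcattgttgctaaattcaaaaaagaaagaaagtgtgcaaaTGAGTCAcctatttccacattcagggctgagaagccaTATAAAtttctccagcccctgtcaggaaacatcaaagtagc
Mmp14: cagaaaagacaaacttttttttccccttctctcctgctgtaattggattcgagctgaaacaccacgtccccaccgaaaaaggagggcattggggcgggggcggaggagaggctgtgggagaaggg
The AP-1 word began 35 bases before the start in Mmp13, 44 in Mmp12 and 63 in both Mmp10 and Mmp7. TATAAA began 16 bases before the start in Mmp13, 29 in Mmp10 and 26 in Mmp7, but at base 5 after it in Mmp12, so the spacing is not shared. The windows of the other annotated starts of Mmp12 and Mmp7 held neither word. These matches are descriptions of the letters and say nothing about occupancy in these cells.

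Total counts ran between 3847760 and 13955181 per library, and levels are given as CPM, counts scaled to library sizes corrected by the trimmed mean of M-values. The correction factors ran from 0.394 in sgSik1 replicate 1 to 1.89 in KT replicate 3. The 4 most abundant genes held 74.2% of the counts of sgSik1 replicate 1 and 27.5% of those of KT replicate 1. Levels therefore depend on this scaling. Stk11 stood at 9.23 to 16.6 CPM in Lkb1-deleted libraries, below the 31.0 to 44.7 CPM of KT libraries, although its change did not pass the test (adjusted p = 0.16). Sik3 stood at 8.74 to 21.0 CPM in Sik-targeted libraries, against 26.9 to 46.7 CPM in KT libraries, and Sik1 at 105 to 514 CPM in Sik-targeted libraries, against 38.2 to 59.6 CPM in KT libraries. A Cas9 cut need not lower a transcript, so these levels do not check the Sik labels. Epcam, an epithelial surface marker, was at 118 to 388 CPM in every library. Ptprc (CD45) was at 0 to 7.89 CPM and Pecam1 (CD31) at 0 to 32.8 CPM. KT replicates 2 and 3 stood apart, with counts in 23582 and 23747 genes where the other libraries had 14283 to 16533, and with counts in 1000 and 1066 of 1435 olfactory and vomeronasal receptor genes where the others had 14 to 58. Calls that depend on them are given with and without them. In bulk RNA, fewer cells of a type and less RNA per cell cannot be told apart.

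By level, the membrane-type proteases and Timp2 and Timp3 made up most of the set. Scaled by exon length (CPM per kb of the GENCODE M21 exon union), the medians over all 12 libraries were 39.7 for Timp2, 34.0 for Timp3, 8.49 for Mmp14, 5.63 for Mmp15, 3.31 for Timp1, 0.869 for Mmp13, 0.453 for Mmp2, 0.0511 for Mmp10, 0.0256 for Mmp7 and 0.00377 for Mmp12. Timp2 (26.9 to 52.9) and Timp3 (12.8 to 58.8) overlapped in range, as did Mmp14 (2.01 to 32.6), Mmp15 (1.88 to 11.6) and Timp1 (0 to 8.77). The exon union of Mmp12 is long, at 7.24 kb, which understates its level per kb. On that scale the 3 TIMPs summed to more than the 7 MMPs in every library, by 1.36 to 4.30 times in Lkb1-deleted, 2.41 to 6.89 times in Sik-targeted and 2.96 to 4.78 times in KT libraries.

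**Figure D1:**
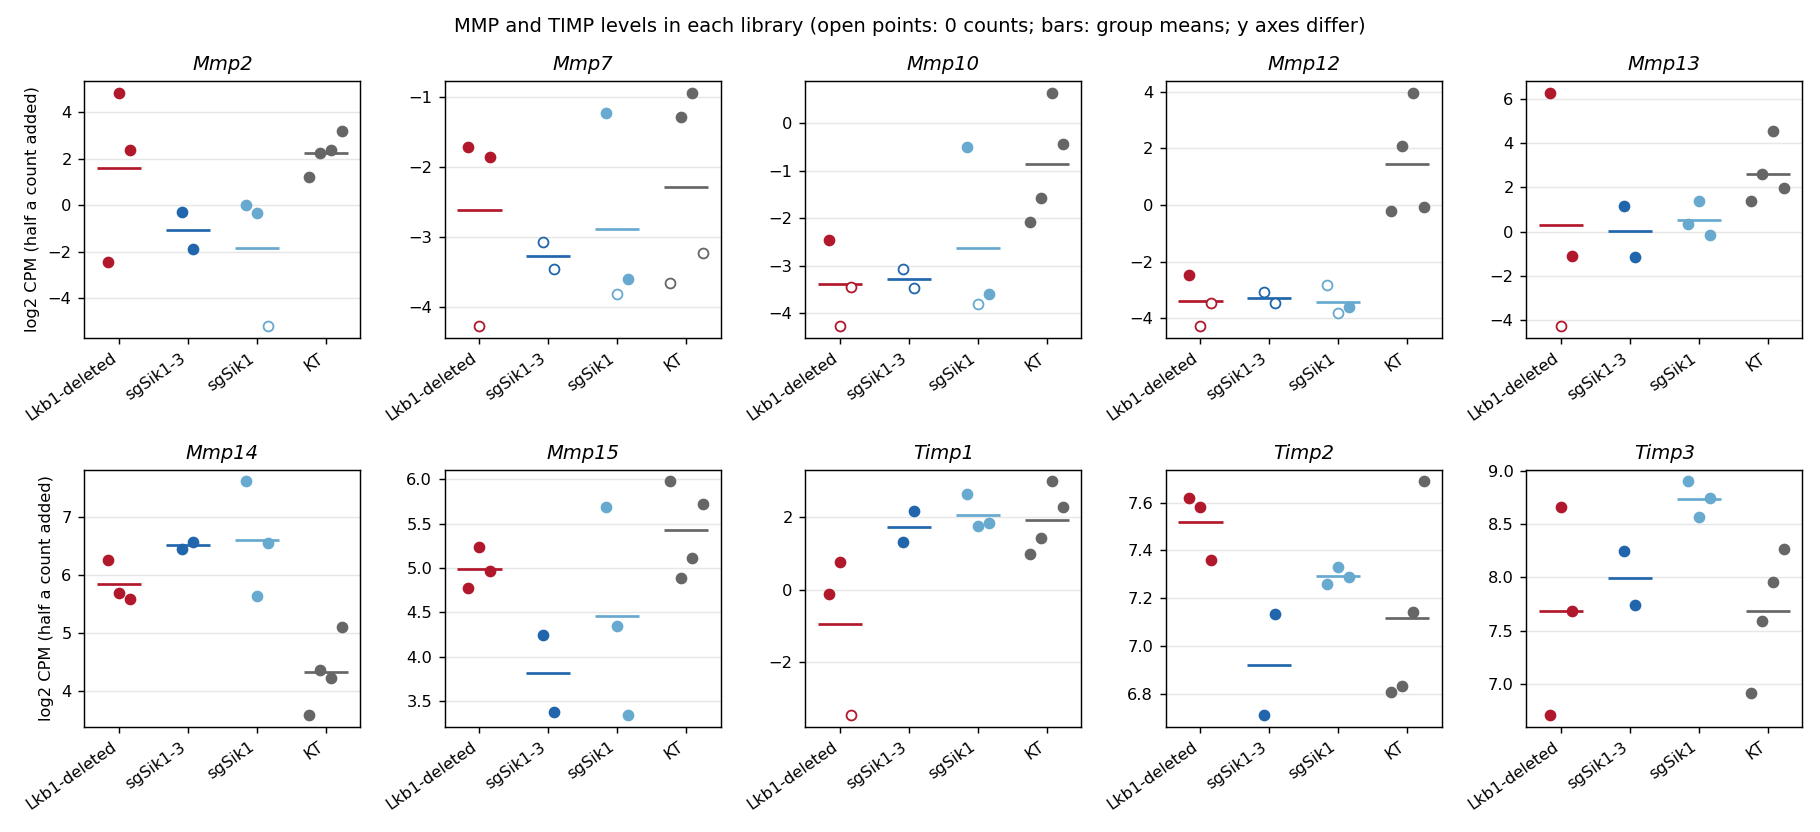
Log2 CPM (0.5 counts added) of the 10 genes in each of the 12 libraries, a panel per gene with its own y axis, with bars at group means and open points for 0 counts. Mmp14 is at 48.1 to 194 CPM in all Lkb1-deleted and Sik-targeted libraries and at 11.96 to 34.4 CPM in KT, and Mmp12 is close to or at 0 outside KT.

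Comparing Lkb1-deleted with KT tumours asks what loss of the kinase does to tumour cell expression. Apart from Mmp12, 0 of the 7 other tested genes were called (edgeR's quasi-likelihood test, Benjamini-Hochberg adjusted p under 0.05 over 13575 genes). Mmp12 also passed the threshold, as lower, but it had enough counts to be tested only because of KT. Its direction was therefore fixed, and its call is not read against the rate of all genes. The call rate over all tested genes was 1.16%, with 0.611% higher and 0.552% lower. The Lkb1-deleted and KT ranges did not overlap for 4 of the 10 genes (Mmp10 among them) and for 3 of the 8 tested, Mmp14 higher and Mmp12 and Timp1 lower, where 14.7% of all tested genes did not overlap. Mmp12 is not read against that share either. The median log2 change of the 8, Mmp12 included, was 0.25, and that of all tested genes was -0.0404.

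Comparing Sik-targeted with KT tumours asks the same of the kinases downstream. By title only the Sik-targeted libraries carry the Cas9 allele and guides, so effects of these cannot be told apart from those of losing the kinases. Of the 7 tested genes other than Mmp12, 2 were called: Mmp14 rose and Mmp2 fell. Mmp2 had 0 to 5 counts in each Sik-targeted library and failed the filter when KT was not fitted. It could thus only come out lower, and its call is not read against the rate of all genes. Mmp12 passed as lower, again only through its KT counts. The call rate over all tested genes was 12.4%, with 5.81% higher and 6.56% lower. Mmp14, Mmp2 and Mmp12 were the 3 genes whose Sik-targeted and KT ranges did not overlap, where 16.1% of all tested genes did not overlap. Of these, Mmp2 and Mmp12 are not read against that share either. The median log2 change of the 8, Mmp2 and Mmp12 included, was -0.58, and that of all tested genes was -0.0349. The 2 comparisons share their KT libraries. Between Lkb1-deleted and Sik-targeted tumours 0 of the 8 were called (0.221% of all tested genes), 3 had an unadjusted p under 0.05 (Mmp2, Mmp13 and Timp1), and DESeq2 called 1, Mmp2. The ranges of 2 of the 8 did not overlap, Timp1 and Timp2, where 5.38% of all tested genes did not. Between sgSik1-3 and sgSik1 tumours 0 of the 8 and 0 of 15303 genes (0%) were called, 0 of the 8 had an unadjusted p under 0.05, as did 528 of all genes, and DESeq2 called 6 genes, none in the set. There 2 of the 8, Timp2 and Timp3, did not overlap and were lower in sgSik1-3, where 14.9% of all tested genes did not overlap.

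**Figure D2:**
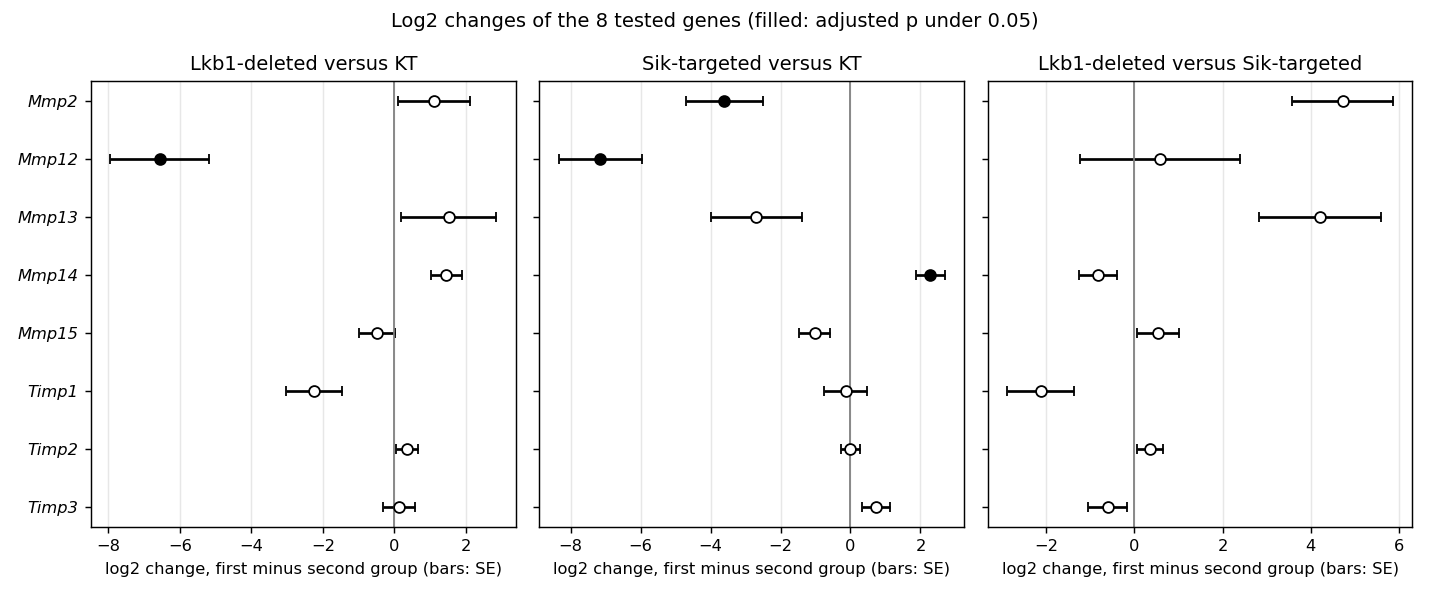
Log2 changes of the 8 tested genes with 1 standard error on either side, for Lkb1-deleted versus KT, Sik-targeted versus KT and Lkb1-deleted versus Sik-targeted. Filled points passed the threshold: Mmp12, testable only through KT, in the first panel (-6.56) and Mmp14 (2.28), Mmp2 (-3.61) and Mmp12 (-7.15) in the second.

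Mmp14, the membrane-type collagenase and activator of pro-Mmp2, was higher in tumours of both mutant kinds. It had 76.1, 51.3 and 48.1 CPM in the 3 Lkb1-deleted libraries, against 11.96, 20.5, 18.6 and 34.4 CPM in the 4 KT libraries. The lowest Lkb1-deleted library was above the highest KT library, and the log2 change was 1.46 (SE 0.44), but its adjusted p of 0.131 missed the threshold. Leaving out 1 library at a time moved that adjusted p between 0.0520 and 0.382. In Sik-targeted tumours Mmp14 had 87.2 and 94.1 CPM in sgSik1-3 libraries and 194, 49.8 and 93.4 CPM in sgSik1 libraries. All 5 lay above all 4 KT libraries, and the highest, sgSik1 replicate 1, was well above the other 4. Both depend on the corrected library sizes. Before correction sgSik1 replicate 2 had 350 of 9219809 counts, a smaller share than the 162 of 4146438 in KT replicate 4. The means were 104 ± 53.9 CPM in Sik-targeted (SD, n = 5) and 21.4 ± 9.42 CPM in KT libraries (SD, n = 4), and the log2 change was 2.28 (SE 0.41, adjusted p = 0.00459 by edgeR). The call held when any 1 library was left out, with log2 changes of 1.92 to 2.57. Without KT replicates 2 and 3 together the change was 2.13 and the adjusted p 0.105. Lkb1-deleted and Sik-targeted libraries overlapped (log2 change -0.82, SE 0.43, adjusted p = 0.444).

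The 3 genes whose log2 CPM followed Mmp14 most closely, among 11031 genes with a mean of at least 2 CPM over the 12 libraries, were Smad3, a transcription factor of TGF-beta signalling, Ppard, a nuclear receptor, and Lif, a secreted cytokine. Pearson's r was 0.98, 0.97 and 0.97, and Spearman's rho was 0.99, 0.99 and 0.97. Without the 2 libraries farthest from the Mmp14 median r was 0.98, 0.95 and 0.93. The libraries share genotype groups and amplified RNA, so these are descriptions of likeness.

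Mmp15, the other membrane-type protease, did not follow Mmp14. It had 27.3, 37.6 and 31.2 CPM in Lkb1-deleted, 18.9 and 10.3 CPM in sgSik1-3, 51.4, 20.4 and 10.2 CPM in sgSik1, and 62.8, 29.6, 34.4 and 52.6 CPM in KT libraries. In 4 of the 5 Sik-targeted libraries Mmp15 was below every KT library. The exception was sgSik1 replicate 1, the library with the lowest correction factor. The log2 changes were -0.48 (SE 0.50, adjusted p = 0.753) in Lkb1-deleted and -1.02 (SE 0.44, adjusted p = 0.136) in Sik-targeted tumours. Without sgSik1 replicate 1 the Sik-targeted change was -1.60 with an adjusted p of 0.0104. Over all single left-out libraries it ran from -1.60 to -0.83 and the adjusted p from 0.0104 to 0.285. Per kb of exon, Mmp14 stood above Mmp15 in each Lkb1-deleted library (1.24 to 2.52 times) and each Sik-targeted library (2.22 to 8.33 times), and below it in each KT library (0.172 to 0.630 times). Against Timp2 on the same scale, Mmp14 stood at 0.175 to 0.253 in Lkb1-deleted, 0.202 to 0.830 in Sik-targeted and 0.0698 to 0.118 in KT libraries.

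**Figure D3:**
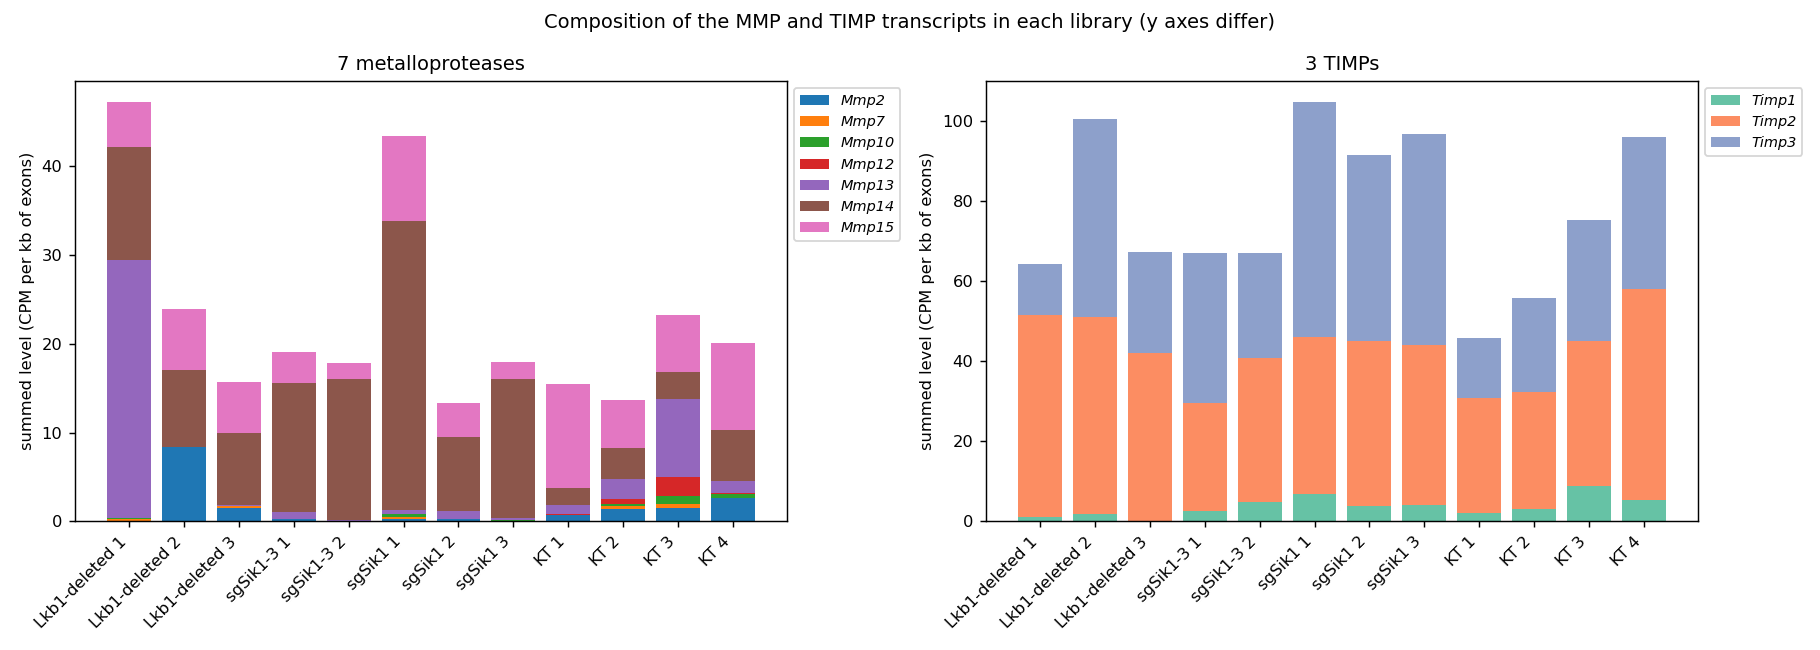
Levels of the 7 MMPs (left) and the 3 TIMPs (right) in each library, stacked, in CPM per kb of exon. Mmp14 is 27.0% to 51.4% of the MMP sum in Lkb1-deleted, 62.8% to 88.3% in Sik-targeted and 13.0% to 28.7% in KT libraries, and Mmp13 fills most of the MMP sum of Lkb1-deleted replicate 1.

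Mmp2, gelatinase A, is commonly made by fibroblasts. It had 0.121, 28.3 and 5.14 CPM in Lkb1-deleted libraries, 0.709 and 0.181 CPM in sgSik1-3, 0.853, 0.712 and 0 CPM in sgSik1, and 2.20, 4.69, 5.14 and 8.91 CPM in KT libraries. All 5 Sik-targeted libraries lay below the 4 KT libraries, while the Lkb1-deleted libraries held both the highest value of the 12 and one of the lowest. Mmp2 fell in Sik-targeted tumours by 3.61 on the log2 scale (SE 1.10, adjusted p = 0.0447 by edgeR). Mmp2 failed the filter when KT was not fitted, and the call was close to the threshold. It was lost without Lkb1-deleted replicate 3, sgSik1-3 replicate 1 or 2, sgSik1 replicate 1 or 3, or any 1 of the 4 KT replicates, where the log2 change was -3.95 to -3.08 and the adjusted p 0.0517 to 0.0989. Without KT replicates 2 and 3 together it was -3.70 with an adjusted p of 0.208. In Lkb1-deleted tumours the change was 1.11 (SE 1.02, adjusted p = 0.712), and without Lkb1-deleted replicate 2 it was -1.01. Lkb1-deleted stood 4.72 (SE 1.14, adjusted p = 0.113) above Sik-targeted on the log2 scale. Without Lkb1-deleted replicate 1 that difference was 5.33 with an adjusted p of 0.00295. Over all single left-out libraries it ran from 2.55 to 5.33 and the adjusted p from 0.00295 to 0.770. Lkb1-deleted replicate 2 held 275 of the 304 Lkb1-deleted counts.

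Fibroblast and pericyte markers moved with Mmp2. The 14 genes of the list summed to 4.25, 529 and 92.0 CPM in the 3 Lkb1-deleted libraries in replicate order, the same order of levels as Mmp2, to 22.3 to 58.5 CPM in Sik-targeted and to 35.9, 137, 233 and 504 CPM in KT libraries. In Sik-targeted tumours 4 of the 12 tested markers fell, where 6.56% of all tested genes did, and 0 rose, and in Lkb1-deleted tumours 0 of 12 passed in either direction. Markers near 0 in Sik-targeted libraries, such as Pdgfra with 30 summed counts against 539 in KT, could only come out lower. Calls of such markers are not read against that rate. The 4 became 1 without KT replicate 4, 2 without sgSik1 replicate 1 or 3, 6 without Lkb1-deleted replicate 2, 7 without Lkb1-deleted replicate 1 and 0 without KT replicates 2 and 3 together. No marker of the list was at 0 in all libraries of a group, and Pdgfrb, a pericyte receptor, was at 0.121 to 22.2 CPM in Lkb1-deleted, 0 to 2.27 CPM in Sik-targeted and 0.787 to 15.7 CPM in KT libraries. The genes most like Mmp2 were Hhip, a hedgehog-binding protein, Myh11, the smooth muscle myosin, and Plcb4, a phospholipase (r = 0.95, 0.94 and 0.93; rho = 0.96, 0.90 and 0.87; 12 libraries). Without the 2 libraries farthest from the Mmp2 median r was 0.94 for each of these 3 genes. The part of stromal cells in the Mmp2 result was not tested.

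Mmp12, the elastase of macrophages, was close to absent outside KT tumours. It had 0.121, 0 and 0 CPM in Lkb1-deleted libraries, 0 CPM in both sgSik1-3 libraries, 0, 0 and 0.0546 CPM in sgSik1, and 0.787, 4.24, 15.6 and 0.849 CPM in KT libraries. Over all libraries of a group this was 1 count in Lkb1-deleted, 1 count in Sik-targeted and 260 counts in KT, so Mmp12 entered the test only through the group where it is high. KT exceeded Lkb1-deleted by a ratio of summed counts per effective size of 165 (95% interval 29.3 to 6527, counting error only) and exceeded Sik-targeted by 272 (48.3 to 10774). Most of the KT counts were in KT replicates 2 and 3 (57 and 194), with 5 in replicate 1 and 4 in replicate 4. The size of both ratios therefore rests on replicates 2 and 3, and no ratio without them was computed. The fitted log2 changes were -6.56 (SE 1.38, adjusted p = 0.0377) in Lkb1-deleted and -7.15 (SE 1.19, adjusted p = 0.00300) in Sik-targeted tumours, and with so few counts their size depends on the fit. The Lkb1-deleted call was lost without Lkb1-deleted replicate 1 (adjusted p = 0.0666), 2 (0.106) or 3 (0.0894), sgSik1-3 replicate 2 (0.0584) or sgSik1 replicate 3 (0.0852). Without KT replicate 1, 2 or 3 Mmp12 no longer had enough counts to be tested in either comparison.

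Summed macrophage markers, like Mmp12, were highest in KT libraries. Leaving out Lyz2, which lung epithelial cells also express, the markers summed to 13.9 to 16.3 CPM in Lkb1-deleted, 20.4 to 31.3 CPM in Sik-targeted and 332, 1228, 710 and 100.0 CPM in KT libraries in replicate order. Within KT the sums did not follow the order of Mmp12, and Chi3l3 alone reached 953 CPM. Fabp4 went the other way in Sik-targeted tumours, with a mean of 4.21 CPM there, 2.45 CPM in KT and 0.827 CPM in Lkb1-deleted libraries. The ranges of Cd68 overlapped between the groups. Of 12 tested markers 6 fell in Lkb1-deleted and 9 in Sik-targeted tumours, and 0 rose in either, where 0.552% of all tested genes fell in Lkb1-deleted and 6.56% in Sik-targeted tumours. Without KT replicates 2 and 3 together 1 and 5 fell, and without KT replicate 2 or 3 alone the 6 in Lkb1-deleted tumours became 3 and 4. Csf1r, the receptor that defines the lineage, was at 0.729 to 2.39 CPM in Lkb1-deleted, 0.236 to 0.569 CPM in Sik-targeted and 2.20 to 6.66 CPM in KT libraries, and Emr1 was at 0 in all Lkb1-deleted libraries. General leukocyte and neutrophil markers summed to 0.972 to 3.70 CPM in Lkb1-deleted, 0.142 to 1.69 CPM in Sik-targeted and 16.1 to 50.4 CPM in KT libraries. Of 4 tested, 3 fell in Lkb1-deleted (0.552% of all genes) and 4 in Sik-targeted tumours (6.56% of all genes), and 0 and 1 without KT replicates 2 and 3 together. The 3 in Lkb1-deleted tumours became 0 without Lkb1-deleted replicate 1, sgSik1-3 replicate 2 or KT replicate 1, 2 or 3, and 1 without Lkb1-deleted replicate 2 or 3. Several markers of both lists had counts almost only in KT. Tyrobp summed to 0 counts in Lkb1-deleted, 0 in Sik-targeted and 165 in KT libraries, and Marco to 4, 2 and 461. Such markers entered the test only through KT and could only come out lower. Their calls are therefore not read against the rates of all genes. The sort removed cells stained for CD45 and F4/80. The part of remaining macrophages in the Mmp12 result was not tested.

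**Figure D4:**
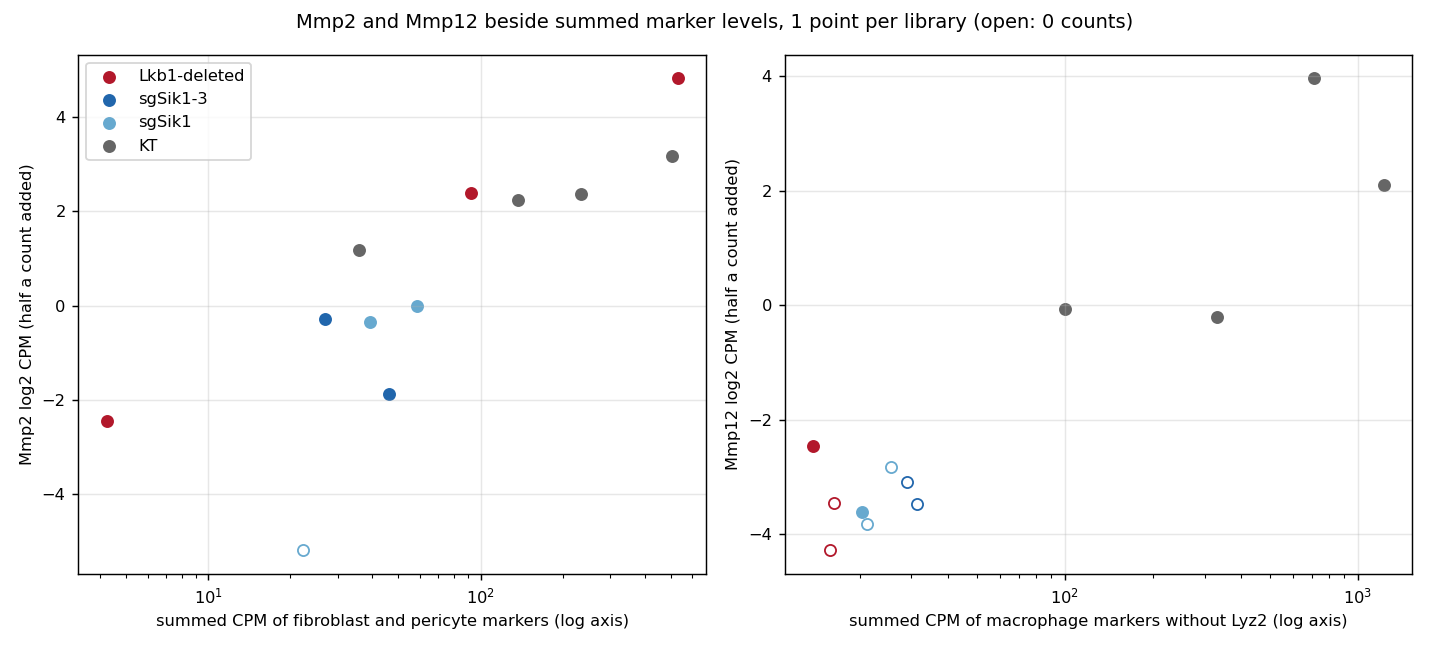
Log2 CPM (0.5 counts added) of Mmp2 against the summed CPM of fibroblast and pericyte markers (left) and of Mmp12 against that of macrophage markers without Lyz2 (right), x axes on a log scale, 1 point per library coloured by group and open where the gene had 0 counts. The KT libraries lie at 100.0 to 1228 CPM of macrophage markers and the other 8 at 13.9 to 31.3 CPM.

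Mmp13, a collagenase of cartilage, bone and some carcinomas, differed widely among Lkb1-deleted libraries. It had 77.8, 0 and 0.367 CPM in Lkb1-deleted libraries, 2.13 and 0.362 CPM in sgSik1-3, 1.14, 2.56 and 0.873 CPM in sgSik1, and 2.52, 6.11, 23.3 and 3.82 CPM in KT libraries. Lkb1-deleted replicate 1 alone was above every KT library, and the other 2 Lkb1-deleted libraries were below every KT library. The Lkb1-deleted change of 1.52 (SE 1.33, adjusted p = 0.696) therefore turned to -5.81 (adjusted p = 0.0616) without that replicate. The Sik-targeted change was -2.69 (SE 1.30, adjusted p = 0.192). It passed the threshold when Lkb1-deleted replicate 1 was left out of the shared fit (-2.65, adjusted p = 0.0182) or when Lkb1-deleted libraries were not fitted at all (-2.73, adjusted p = 0.0178). Over all single left-out libraries this change ran from -3.07 to -1.60 and the adjusted p from 0.0182 to 0.535. KT replicate 3 held 290 of the 406 KT counts, and without KT replicates 2 and 3 together Mmp13 was not called. Lkb1-deleted stood 4.22 above Sik-targeted (SE 1.38, adjusted p = 0.23), and without Lkb1-deleted replicate 1 the difference was -3.16.

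Mmp10 (stromelysin-2) and Mmp7 (matrilysin, an epithelial MMP) were near the detection limit, where 3 counts correspond to 0.164 to 0.853 CPM depending on the library. Mmp10 had 0.121, 0 and 0 CPM in Lkb1-deleted libraries, 0 and 0 CPM in sgSik1-3, 0.568, 0 and 0.0546 CPM in sgSik1, and 0.157, 0.298, 1.53 and 0.637 CPM in KT libraries. All Lkb1-deleted libraries were below all KT libraries (2-sided exact permutation p = 0.0571, the smallest this design allows). Sik-targeted and KT libraries overlapped (exact permutation p = 0.0635), and each p became 0.254 after Benjamini-Hochberg adjustment over 8 tests of the 2 genes. Mmp7 summed to 3 counts in Lkb1-deleted, 2 in Sik-targeted and 11 in KT libraries, and all 11 were in KT replicates 2 and 3, the libraries that also averaged 3.41 and 4.21 counts per olfactory or vomeronasal receptor gene. Its differences were not detectable at this depth.

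Of the 3 TIMPs 0 were called in any of the 4 comparisons by edgeR or DESeq2, and only Timp1 had an unadjusted p under 0.05, in Lkb1-deleted tumours against KT and against Sik-targeted tumours. Timp1 had 0.850, 1.65 and 0 CPM in Lkb1-deleted libraries, 2.36 and 4.34 CPM in sgSik1-3, 5.97, 3.27 and 3.49 CPM in sgSik1, and 1.89, 2.61, 7.79 and 4.67 CPM in KT libraries. Every Lkb1-deleted library was below every library of the other groups, but at log2 changes of -2.26 against KT (SE 0.78, adjusted p = 0.195) and -2.12 against Sik-targeted (SE 0.76, adjusted p = 0.263) neither difference passed the test. Sik-targeted and KT libraries overlapped (-0.14, SE 0.62). Timp2, the abundant inhibitor that pairs with Mmp14, had 197, 191 and 164 CPM in Lkb1-deleted, 105 and 140 CPM in sgSik1-3, 153, 161 and 156 CPM in sgSik1, and 112, 114, 141 and 206 CPM in KT libraries. Its ranges overlapped KT in both comparisons, with log2 changes of 0.36 (SE 0.31) in Lkb1-deleted and 0.00 (SE 0.27) in Sik-targeted tumours. Timp3, which stays bound to the matrix, had 104, 405 and 206 CPM in Lkb1-deleted, 305 and 214 CPM in sgSik1-3, 479, 380 and 429 CPM in sgSik1, and 121, 193, 248 and 308 CPM in KT libraries. The 3 sgSik1 libraries were above all KT libraries and the 2 sgSik1-3 libraries were not, and the Sik-targeted change of 0.73 (SE 0.40, adjusted p = 0.248) did not pass. The Lkb1-deleted change of Timp3 was 0.13 (SE 0.45).

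Other genes of the system were read from fixed lists. Of 16 further MMP genes 6 could be tested. In Lkb1-deleted tumours 0 of the 6 passed, and in Sik-targeted tumours 1 fell, Mmp3 (stromelysin-1, log2 change -3.15, adjusted p = 0.0323). Mmp3 summed to 10 counts in Sik-targeted and 90 in KT libraries. It entered the test through the other groups and could only come out lower. Its call is therefore not read against the 6.56% of all genes that fell. Of 10 other inhibitors 6 could be tested and 0 passed in Lkb1-deleted tumours. In Sik-targeted tumours 1 of the 6 rose and 1 fell, against 5.81% and 6.56% of all genes. Reck, a membrane-anchored inhibitor of MMPs that include Mmp14, fell (-3.04, adjusted p = 0.00802). Reck had 0.364, 5.66 and 4.04 CPM in Lkb1-deleted, 0.709 to 1.42 CPM in Sik-targeted and 4.41 to 12.5 CPM in KT libraries, so no Sik-targeted library reached a KT library. Reck summed to 35 counts in Sik-targeted and 276 in KT libraries. It was low enough there to enter the test through the other groups, so its fall is not read against the rate either. Without KT replicates 2 and 3 together 0 of either list passed. Without sgSik1-3 replicate 1 or 2, sgSik1 replicate 1 or 3, or KT replicate 2, 3 or 4, 0 of the further MMPs passed. Of the other inhibitors 1 rose and 1 to 3 fell when single libraries were left out, with 3 without Lkb1-deleted replicate 1 or sgSik1 replicate 2 and 2 without Lkb1-deleted replicate 2 or KT replicate 1.

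Genes of proenzyme activation and plasmin formation were higher in Sik-targeted tumours. Of 12 tested 8 rose and 1 fell, against 5.81% and 6.56% of all genes, and the list median was 1.36 on the log2 scale. Plaur, the urokinase receptor, rose by 3.44 (SE 0.48, adjusted p = 0.00123), with 31.2 to 159 CPM in Sik-targeted and 6.58 to 7.55 CPM in KT libraries. Itgb3, an integrin subunit, rose by 3.76 (adjusted p = 0.00207) and Pcsk6, a proprotein convertase, by 2.91 (adjusted p = 0.0163). Pcsk5, another convertase, fell by 4.29 (adjusted p = 0.0154). With 6 counts summed over Sik-targeted and 173 over KT libraries, Pcsk5 could only come out lower. Its fall is not read against the 6.56% of all genes. In Lkb1-deleted tumours 0 of 12 were called at a list median of 0.68, and Plaur stood at 15.4 to 42.9 CPM there, above all KT libraries (log2 change 1.89, adjusted p = 0.0784). The 8 that rose in Sik-targeted tumours became 2 without KT replicate 2, 3 without KT replicate 3, 4 without KT replicate 4, 5 without sgSik1-3 replicate 2 and 2 without KT replicates 2 and 3 together, where the list median was 1.26.

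Transcription factors that act on MMP promoters also moved. Of 20 tested 10 rose and 2 fell in Sik-targeted tumours, where 5.81% and 6.56% of all genes did, so the 2 falls are near that share. In Lkb1-deleted tumours 2 rose and 0 fell, where 0.611% of all genes rose and 0.552% fell. Fosl1, an AP-1 subunit, had 21.9, 17.9 and 11.2 CPM in Lkb1-deleted libraries, 13.5 and 17.6 CPM in sgSik1-3, 122, 5.69 and 20.3 CPM in sgSik1, and 0.157, 0.447, 0.241 and 0.424 CPM in KT libraries. The groups did not overlap with KT, and the log2 changes were 5.67 (SE 0.96, adjusted p = 0.0179) in Lkb1-deleted and 6.72 (SE 0.95, adjusted p = 0.00162) in Sik-targeted tumours. Fosl1 summed to 415 counts in Lkb1-deleted, 994 in Sik-targeted and 12 in KT libraries. It thus entered the test through the mutant groups and could only come out higher. Its calls, counted among the risers above, are not read against the rates of all genes. Fosb, also of AP-1, rose by 2.81 (adjusted p = 0.0232) in Lkb1-deleted tumours. Junb (2.55, adjusted p = 0.0120) and Smad3 (1.87, adjusted p = 0.00797) rose in Sik-targeted tumours and Etv5, an ETS factor, fell (-2.11, adjusted p = 0.00351). Of the 4 chromosome 9 genes with the printed AP-1 word, Mmp13 was not called in either kind of tumour, Mmp7 and Mmp10 were too low to test, and Mmp12 was testable only through its KT counts. Mmp14, whose window lacks the word, rose in Sik-targeted tumours. Whether AP-1 acted on any of these genes was not tested. The 10 risers in Sik-targeted tumours became 3 without KT replicate 2, 4 without KT replicate 3, 6 without KT replicate 1 or 4, and 0 without KT replicates 2 and 3 together, at a list median of 1.45. The 2 in Lkb1-deleted tumours became 0 without KT replicate 1, 2 or 3, 1 without Lkb1-deleted replicate 3 and 11 without sgSik1 replicate 1, and 0 without KT replicates 2 and 3 together.

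In Sik-targeted tumours 5.81% of all tested genes rose and 6.56% fell, so 1 fall in a list of 10 to 17 genes is near the share of all genes. Of 13 tested ADAM and ADAMTS proteases 2 rose in Sik-targeted tumours, Adam12 (1.71, adjusted p = 0.0481) and Adam15 (1.30, adjusted p = 0.0477). Adam8, a protease of leukocytes and tumour cells, fell (-3.26, adjusted p = 0.0240). With 12 counts summed over Sik-targeted and 149 over KT libraries, Adam8 could only come out lower. Its fall is not read against the 6.56% of all genes. Of 17 matrix and cell-surface substrates 2 rose, Col18a1 (2.73, adjusted p = 0.00993) and the perlecan gene Hspg2 (2.16, adjusted p = 0.0254), and Col3a1 (-4.19, adjusted p = 0.0186), which is also in the fibroblast list, fell. In Lkb1-deleted tumours 0 of either list passed. These counts were small and moved with single libraries, at 0 to 3 rising and 0 to 3 falling proteases and 1 to 4 rising and 0 to 5 falling substrates, and were 0 without KT replicates 2 and 3 together. Without KT replicate 2 or 3 alone 0 of the proteases passed. Of 10 epithelial markers 3 rose and 1 fell in Sik-targeted tumours, and 0 passed in Lkb1-deleted tumours. The 3 became 1 without KT replicate 2, 2 without KT replicate 3 and 0 without both, and the 1 became 0 without sgSik1 replicate 1 or KT replicate 1. Of 8 endothelial markers 0 were called in either comparison, and with Lkb1-deleted replicate 1 left out 2 rose in Lkb1-deleted and 2 fell in Sik-targeted tumours. Between Lkb1-deleted and Sik-targeted tumours, and between sgSik1-3 and sgSik1, 0 genes of these lists were called.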

How the data were processed

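RNA was prepared from sorted tumour cells depleted of CD45, CD31, F4/80 and Ter119 positive cells, amplified and sequenced in 100-base pairs, per the labels' protocols. The authors deposited 1 table of raw counts per gene, and the submitters' processing notes name STAR 2.4.2a, HTSeq and mm10. Neither the gene annotation nor any strand setting is stated there. Cell numbers behind a library are small and the RNA was amplified, so counts are not independent molecules, and intervals cover counting error only.

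Genes with low counts were removed (filterByExpr), libraries were scaled by the trimmed mean of M-values, and edgeR 4.0.16 quasi-likelihood tests (R 4.3.3, robust) compared 3 genotype groups fitted together (13575 genes) and, in a second fit, the 4 title groups (15303 genes). P-values were adjusted by Benjamini-Hochberg over all genes tested, with a threshold of 0.05. The standard error is the log2 change divided by the square root of F. Log2 CPM used 0.5 counts added, and likeness used genes of mean CPM of at least 2. Genes below the filter were compared by exact permutation. Alternatives were DESeq2 1.42.0, its size factors, no filter, 2 groups only, a replicate block, KT replicates 2 and 3 out, and each library out. For the other gene lists the last 2 were added after seeing the data. The fit was tested on simulated data. Named genes of a list were those called, at most 4 per list and comparison by smallest p. The values of a gene of the list of other inhibitors are not reported here.

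The genes and lists were chosen with earlier results of these data known.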

Additional observations from a re-analysis of the deposited data

Results flagged for a closer look

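Of 17 sets of 4 or 5 libraries examined for a value far from the others, 1 stood out, and chance marks about 1 in 20. Mmp15 in sgSik1 replicate 1 was 51.4 CPM, while the next highest of the 5 Sik-targeted libraries was 20.4 CPM. The gap was 0.753 of the range, above the critical value of 0.71. The same library was also the highest of the 5 for Mmp14, at 194 CPM. Its correction factor was the lowest of the 12 libraries, at 0.394, and 4 genes held 74.2% of its counts. Before correction Mmp15 had 181 of its 8941240 counts and 143 of 9219809 in sgSik1 replicate 2, so the gap depends on that factor.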

How the results depend on the processing

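Numbers of genes called moved in most alternatives. With DESeq2 they were 498 in Lkb1-deleted versus KT, 325 in Lkb1-deleted versus Sik-targeted (1 MMP, Mmp2) and 6 in sgSik1-3 versus sgSik1. Without the filter they were 846, 3654 (Sik-targeted versus KT), 698 and 44, and 3, 5 and 2 of the 10 MMP and TIMP genes were called in the first 3 comparisons, while the median of all genes fell to -0.62 and -0.84 against KT, so changes are best read against that shift. With only 2 groups fitted, Mmp12 was below the filter and not tested, so Lkb1-deleted versus KT held 0 of the set, Sik-targeted versus KT held 3 with Mmp13 called beside Mmp14 and Mmp2, and Lkb1-deleted versus Sik-targeted held 0 genes. Without KT replicates 2 and 3, genes called were 3, 98 and 9, and 0 of the set in both comparisons with KT, where Mmp12 was again not tested. With 1 library left out, genes called were 13 to 242 in Lkb1-deleted versus KT, 577 to 2655 in Sik-targeted versus KT, 5 to 710 in Lkb1-deleted versus Sik-targeted and 0 to 4 in sgSik1-3 versus sgSik1, and the set held 0 to 1, 1 to 4, 0 to 1 and 0 calls. The causes were not tested.

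Correlations of deviations over 0.1 were found in 4 of 15 same-numbered pairs and in 10 of 38 pairs of different numbers. Of 12 libraries 4 correlated best with their own number. In such small groups the values are tied to each other. The sgSik1-3 libraries had mirrored correlations, such as 0.0495 and -0.0495 with KT replicate 1. This check therefore cannot decide whether the numbers pair libraries. With a replicate block, genes called were 49, 1050 and 10, and Lkb1-deleted versus KT held 0 of the set, since Mmp12 reached -6.21 (adjusted p = 0.0504). Mmp2 in Sik-targeted versus KT was -3.52 (adjusted p = 0.101), Mmp13 in Lkb1-deleted versus KT turned to -0.42 and Timp2 in Sik-targeted versus KT to 0.24.

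Signs that turned belonged to changes that were not called. With DESeq2 Mmp2 was -0.0844 in sgSik1-3 versus sgSik1. Without KT replicates 2 and 3 Timp1 was 0.22 in Sik-targeted versus KT. Leaving out 1 library gave, in Lkb1-deleted versus KT, Mmp13 -5.81 to 2.61, Mmp2 -1.01 to 1.71 and Timp3 -0.47 to 0.50. In Sik-targeted versus KT it gave Timp1 -0.39 to 0.34 and Timp2 -0.11 to 0.20. In Lkb1-deleted versus Sik-targeted it gave Mmp12 -1.37 to 1.81 and Mmp13 -3.16 to 4.80. In sgSik1-3 versus sgSik1 it gave Mmp2 -1.12 to 0.90, Mmp13 -2.03 to 0.48, Mmp14 -0.66 to 0.36 and Timp1 -0.83 to 0.0430. Depth limits Mmp7, Mmp10 and Mmp12 most.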
